A study of Mus musculus with 8 samples.

Results

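Gastric-type secretory and surface genes are here a set of 10 genes known from mucus-secreting epithelium of the stomach and gut: the trefoil factors Tff1, Tff2 and Tff3, the mucins Muc1 and Muc5ac, the disulfide isomerase Agr2, the surface protein Psca, the lectin Lgals4, the annexin Anxa10 and the protease Ctse. They were taken by symbol, and all 10 had a row among the 39179 genes counted. Of these, 8 had enough reads to be tested, in a fit over 16192 genes, and Tff3 and Agr2 did not. Tff1 and Psca were picked because the difference between the constructs had opposite signs in line 1 and in lines 2 to 4, so their values in that comparison are a description and carry no test. The other 8 genes were listed beside them with results of the same libraries known.

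Surface mucous cells of the stomach coat the lining with gel-forming mucins, chiefly MUC5AC, and secrete trefoil factor peptides that bind to mucus and help an injured surface to close. Mucin chains are heavily decorated with O-linked sugars and are folded in the endoplasmic reticulum, where AGR2 takes part in their assembly. In the pancreas, early neoplastic ducts and the classical type of ductal adenocarcinoma are known for switching on such stomach genes, which healthy ducts largely lack.

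The cells were mouse pancreatic ductal adenocarcinoma cells, all with the alleles ROSA_rtTA and p48-Cre and a transgene under a tetracycline operator. ROSA_rtTA supplies the transactivator that doxycycline activates, and p48-Cre expresses Cre recombinase in the pancreatic lineage. Each of 4 cell lines carried a USP21 construct, WT-USP21 in one library and ED-USP21 in the other, which gave 4 libraries per construct. USP21 is a deubiquitinase, an enzyme that removes ubiquitin from proteins. Lines 1 and 2 were labelled FVB/C57Bl6 and lines 3 and 4 C57BL/6. What ED stands for, the doxycycline state and the number of clones behind a line are not given in the sources used here, and no library without a USP21 construct was analysed here. A comparison therefore sets one construct against the other and says nothing of cells with neither. The design names the 4 lines as biological replicates.

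Between 72828184 and 107551210 reads per library fell on genes. Usp21 RNA was present in every library, at 147, 944, 539 and 941 CPM (a gene's reads scaled to a common library total) with WT-USP21 in lines 1 to 4, and at 1658, 3133, 1662 and 2721 CPM with ED-USP21. It was higher with ED-USP21 in 4 of 4 lines, and reads of the construct and of the cells' own gene were not told apart. Line 1 stood apart: 3361 to 4044 genes differed at least 2-fold between it and another line with the same construct, against 703 to 1473 among lines 2 to 4. Lines 2 and 4, of different background labels, were the closest, at 703 to 717 genes. The constructs within a line were further apart, at 1167 to 1718 genes. Fits over lines 2 to 4 and between backgrounds treat lines 2 and 4 as separate, and how independent they are was not tested. The first principal component, which separated line 1 from the rest, held 63.8% of the variance. Each result below is therefore given by line, and the fits also without line 1. Epithelial cytokeratin was abundant, with Krt8 between 2128 and 4068 CPM, but Epcam was nearly absent from lines 2 to 4, at 0.0645 to 0.314 CPM against 3.40 and 5.35 CPM in line 1. Of the immune markers Ptprc reached at most 0.280 CPM but Cd68 15.5 CPM, and of the fibroblast markers Dcn, Lum and Thy1 were at 0 but Pdgfra reached 5.82, Col1a2 5.33 and Col1a1 4.80 CPM. The acinar gene Cela1 reached 11.2 and the endothelial gene Kdr 7.07 CPM, and the endocrine genes Ins1, Ins2 and Gcg were at 0. In bulk RNA, fewer cells of a type and less RNA per cell cannot be told apart.

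In line 1 the trefoil, mucin and surface genes were higher with WT-USP21, and in lines 2 to 4 most were lower. Of the 6 tested genes not picked on signs, 6 were higher with WT-USP21 in line 1, with a median log2 difference of 1.84. In lines 2, 3 and 4 their medians were -0.16, -0.29 and -1.39. With Tff1 and Psca, whose signs the choice fixed, the medians were 1.84, -0.39, -0.71 and -2.02, and 6, 6 and 7 of the 8 were lower with WT-USP21 in lines 2, 3 and 4. Over all 16192 genes tested the medians lay between -0.02 and 0.01 in the 4 lines. Among the 9 genes with reads in every library, the ED-USP21 library of line 1 was the lowest of the 4 ED-USP21 libraries for 8, Lgals4 being the exception, and the lowest of all 8 libraries for 6. These counts include Tff1 and Psca. The share of all genes with such ranks was not counted, so they only describe the set. Log2 differences here and below are WT-USP21 minus ED-USP21, so that a value above 0, or a gene that rose, is higher with WT-USP21.

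**Figure D1:**
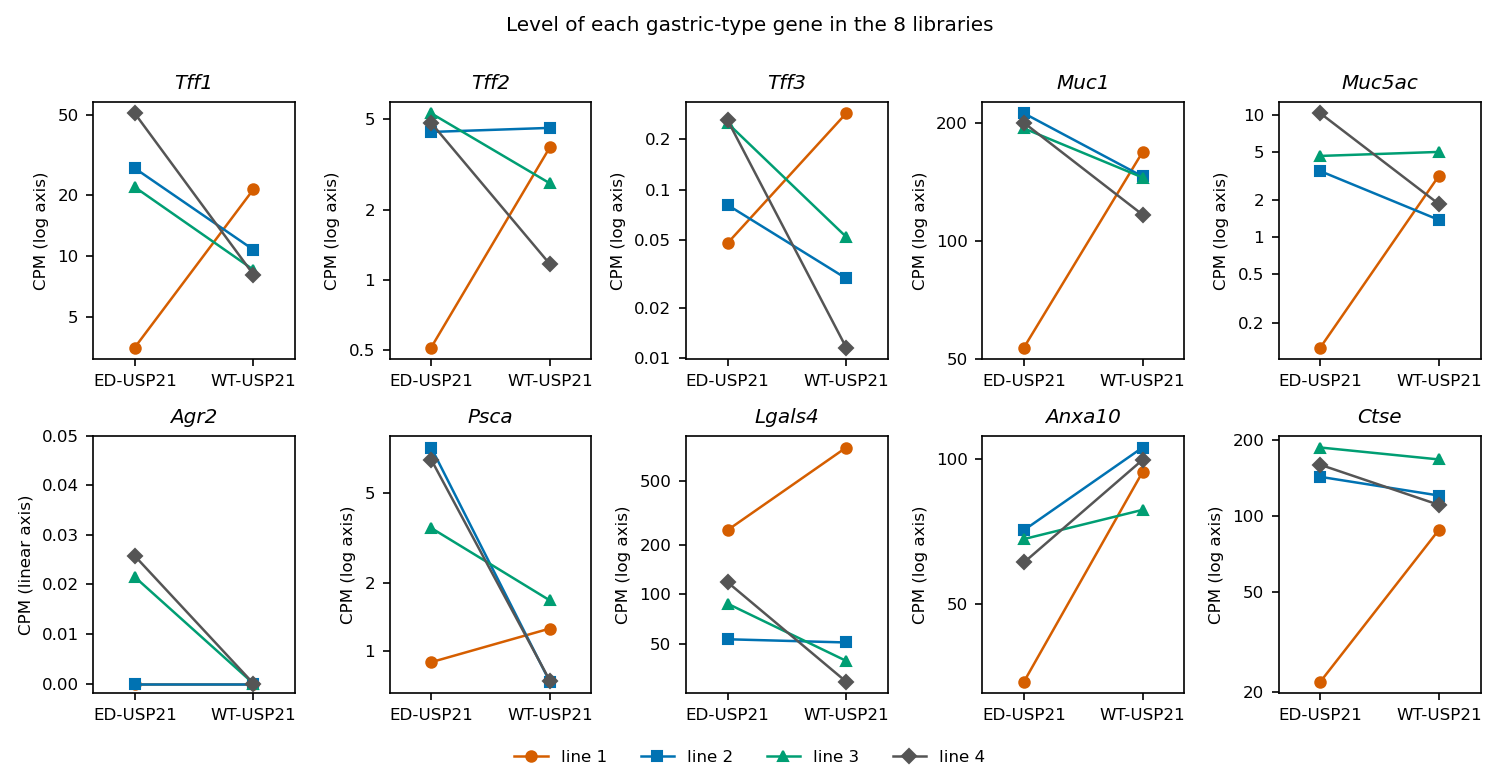
Level of each of the 10 genes in CPM, with ED-USP21 on the left and WT-USP21 on the right of each panel, 1 point per library and 1 line and marker per cell line; axes are logarithmic except for Agr2, whose axis is linear. Line 1 rises from left to right in every panel but that of Agr2, where it is at 0, and Anxa10 is the only gene in which all 4 lines rise.

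The trefoil factors are small disulfide-rich peptides secreted with mucus. Tff1, the form typical of stomach surface cells, was at 21.4, 10.8, 8.59 and 8.14 CPM with WT-USP21 in lines 1 to 4 and at 3.55, 27.2, 22.0 and 50.8 CPM with ED-USP21. Line 1 held the highest of the WT-USP21 values and the lowest of the ED-USP21 values, and the groups overlapped. The level in line 1 was 6.03-fold higher with WT-USP21, whereas lines 2, 3 and 4 were 2.52-fold, 2.56-fold and 6.24-fold higher with ED-USP21. On the log2 scale these are differences of 2.58, -1.33, -1.35 and -2.64. The group means were 12.2 ± 6.23 CPM with WT-USP21 and 25.9 ± 19.5 CPM with ED-USP21 (SD, n = 4 each). The spread was wider among the ED-USP21 libraries, where line 1 was low and line 4 high.

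Tff2, which is made mainly by mucous neck and gland cells, was lower overall. It measured 3.75, 4.56, 2.62 and 1.17 CPM with WT-USP21 and 0.510, 4.38, 5.27 and 4.79 CPM with ED-USP21. In line 1 the WT-USP21 library was 7.35-fold higher, in line 2 the libraries were within 1.04-fold of each other, and in lines 3 and 4 the ED-USP21 library was 2.01-fold and 4.08-fold higher. The low value was the ED-USP21 library of line 1, and the other 7 libraries lay between 1.17 and 5.27 CPM.

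Tff3, the intestinal form, had few reads: 26, 3, 5 and 1 with WT-USP21 and 5, 6, 23 and 20 with ED-USP21. The ratio of WT-USP21 to ED-USP21, scaled to library totals, was 5.87 in line 1 (95% exact interval 2.22 to 19.6), from 26 against 5 reads. Over lines 2 to 4 it was 0.159 (0.0688 to 0.328), from 9 against 49 reads. These intervals cover counting error only and say nothing of the spread between lines. The direction in each line was that of Tff1, although in line 2 it rests on 3 against 6 reads, a ratio of 0.367 (0.0595 to 1.72). The level was low throughout, from 0.0116 to 0.283 CPM. Tff3, Tff2 and Tff1 lie side by side on chromosome 17, in this order with the gene model Gm15318 between Tff2 and Tff1 (RefSeq, GRCm38.p6).

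Muc1 encodes the mucin that spans the apical membrane of most secretory epithelia, and it was the more abundant of the pair of mucins in the set. It was at 168, 146, 145 and 116 CPM with WT-USP21 and at 53.3, 211, 193 and 199.8 CPM with ED-USP21. The ED-USP21 library of line 1 was the only one of the 8 below 100 CPM, and the other 3 ED-USP21 libraries were above every WT-USP21 library. The log2 difference was 1.66 in line 1 and -0.54, -0.42 and -0.78 in lines 2, 3 and 4. Group means were 144 ± 21.3 and 164 ± 74.5 CPM (SD, n = 4 each), which overlapped within their spread.

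Muc5ac, the gel-forming mucin of stomach surface cells, was at 3.17, 1.38, 4.96 and 1.86 CPM with WT-USP21 and at 0.125, 3.46, 4.60 and 10.3 CPM with ED-USP21. The 25.3-fold difference in line 1, from 292 against 13 reads, was the largest of any of the 8 tested genes in any line. Lines 2 and 4 were 2.51-fold and 5.52-fold higher with ED-USP21, and line 3 differed by 1.08-fold the other way. Agr2 was barely read at all: 0 reads in the 4 WT-USP21 libraries and 0, 0, 2 and 2 with ED-USP21. A count of 0 allows up to 3 reads, which is 0.0289 to 0.0405 CPM in these libraries, and every value was within that limit. No difference in Agr2 was detectable at this depth, and the mucin levels above were measured in cells with next to no Agr2 RNA.

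Psca encodes a small surface protein of the LY6 family, held in the membrane by a lipid anchor and made by stomach and bladder epithelium. Its levels were 1.26, 0.735, 1.68 and 0.743 CPM with WT-USP21 and 0.896, 7.94, 3.51 and 7.03 CPM with ED-USP21. All 4 WT-USP21 libraries and the ED-USP21 library of line 1 were below 2 CPM, and the other 3 ED-USP21 libraries were above 3 CPM. In line 1 the WT-USP21 library was 1.41-fold higher, while lines 2, 3 and 4 were 10.8-fold, 2.09-fold and 9.46-fold higher with ED-USP21. The log2 differences were 0.48, -3.40, -1.05 and -3.20. Of the 5 tested genes with opposite signs in line 1 and lines 2 to 4, Psca had the smallest difference in line 1 and the largest ones in lines 2 and 4.

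Lgals4 encodes galectin-4, a lectin that binds sugars on gut epithelial surfaces and is found in well-differentiated pancreatic tumours. It was far higher in line 1, at 797 CPM with WT-USP21 and 248 CPM with ED-USP21, than in lines 2, 3 and 4, at 50.8, 39.1 and 29.2 CPM with WT-USP21 and 53.1, 87.8 and 119 CPM with ED-USP21. Lgals4 was thus the gene in which line 1 was highest with both constructs. Lines 1 to 4 had log2 differences of 1.68, -0.07, -1.17 and -2.03. Lgals4 has a close mouse relative, Lgals6, with no row in the tables, so reads of that copy could be counted here and the Lgals4 level is uncertain to that extent.

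Ctse encodes cathepsin E, an aspartic protease of the endosomes of stomach surface cells that is known from early pancreatic neoplasia. Its levels were 88.2, 120.5, 167 and 111 CPM with WT-USP21 and 22.1, 143, 187 and 159 CPM with ED-USP21. Apart from the ED-USP21 library of line 1 the 7 libraries were within 88.2 to 187 CPM. In lines 2, 3 and 4 the log2 differences were small, at -0.25, -0.16 and -0.53, against 1.998 in line 1.

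Anxa10 encodes an annexin found in stomach mucosa and in classical pancreatic tumours. It was at 93.9, 105.5, 78.3 and 99.5 CPM with WT-USP21 and at 34.5, 71.1, 68.1 and 60.9 CPM with ED-USP21. The groups did not overlap, and in all genes tested 1.07% had every WT-USP21 library above every ED-USP21 library and 0.71% every one below. Group means were 94.3 ± 11.7 and 58.7 ± 16.7 CPM (SD, n = 4 each). The log2 differences were 1.45, 0.57, 0.20 and 0.71 in lines 1 to 4, so Anxa10 moved with the other genes in line 1 and against most of them in lines 2 to 4.

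Scaled to exon length, the 10 genes spanned a wide range of mean CPM per kilobase over the 8 libraries. Lgals4 at 76.9, Muc1 at 65.7, Ctse at 39.3, Anxa10 at 33.4 and Tff1 at 27.1 were the 5 highest, and Lgals4 owed its rank to line 1. Tff2 at 5.79 and Psca at 3.46 followed, then Muc5ac at 0.347, Tff3 at 0.256 and Agr2 at 0.0046. Over single libraries Lgals4 ranged from 12.6 to 344, Muc1 from 22.7 to 90.1, Ctse from 6.96 to 58.9, Anxa10 from 15.04 to 46.0 and Tff1 from 5.06 to 72.3 CPM per kilobase, so neighbours in this order overlapped. Tff2, from 0.874 to 9.02, and Psca, from 0.854 to 9.23, overlapped too. Every value of Muc5ac, Tff3 and Agr2 was below both, except 0.954 for Muc5ac in the ED-USP21 library of line 4. The membrane mucin was thus the main mucin per length, and the gel-forming Muc5ac and its helper Agr2 were near the bottom.

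Promoter sequence from RefSeq (GRCm38.p6, 250 bases before to 50 after the annotated start) was at hand for Muc1, Lgals4, Anxa10 and Agr2. The first 3 are shown because Muc1 and Lgals4 had opposite signs in line 1 and lines 2 to 4 and Anxa10 did not. Each is printed 5′ to 3′ on the gene's own strand, with the TATA motif TATAAA in capitals.
Muc1, chr3:89228806-89229105, plus strand: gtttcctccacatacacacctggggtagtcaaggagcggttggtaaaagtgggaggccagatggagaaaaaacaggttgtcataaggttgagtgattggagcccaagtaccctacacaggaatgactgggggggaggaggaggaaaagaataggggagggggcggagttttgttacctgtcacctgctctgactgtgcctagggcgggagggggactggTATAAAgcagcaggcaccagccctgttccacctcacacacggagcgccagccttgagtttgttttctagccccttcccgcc
Lgals4, chr7:28833544-28833843, plus strand: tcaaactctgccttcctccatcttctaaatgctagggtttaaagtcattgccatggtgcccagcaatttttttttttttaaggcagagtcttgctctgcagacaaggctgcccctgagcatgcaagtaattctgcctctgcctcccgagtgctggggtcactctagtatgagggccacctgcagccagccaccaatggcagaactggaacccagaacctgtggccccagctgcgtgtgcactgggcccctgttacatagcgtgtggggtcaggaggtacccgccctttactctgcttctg
Anxa10, chr8:62123144-62123443, minus strand: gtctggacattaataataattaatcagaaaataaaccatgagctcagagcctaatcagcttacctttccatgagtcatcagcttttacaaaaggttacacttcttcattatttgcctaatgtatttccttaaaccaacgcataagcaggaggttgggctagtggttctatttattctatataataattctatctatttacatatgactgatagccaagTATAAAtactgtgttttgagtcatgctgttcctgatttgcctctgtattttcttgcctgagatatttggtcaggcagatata
The motif begins at position -31 from the start in Muc1 and at -32 in Anxa10, and it is not in the Lgals4 or Agr2 window. On either strand, TATAAA was in 13.6% of 32851 mouse promoters of the same length. The motifs GATAA (GATA family) and CTTTGA (part of many HNF4 and TCF sites), found in 25.4% and 16.0% of promoters, were in none of the 4 windows.

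**Figure D2:**
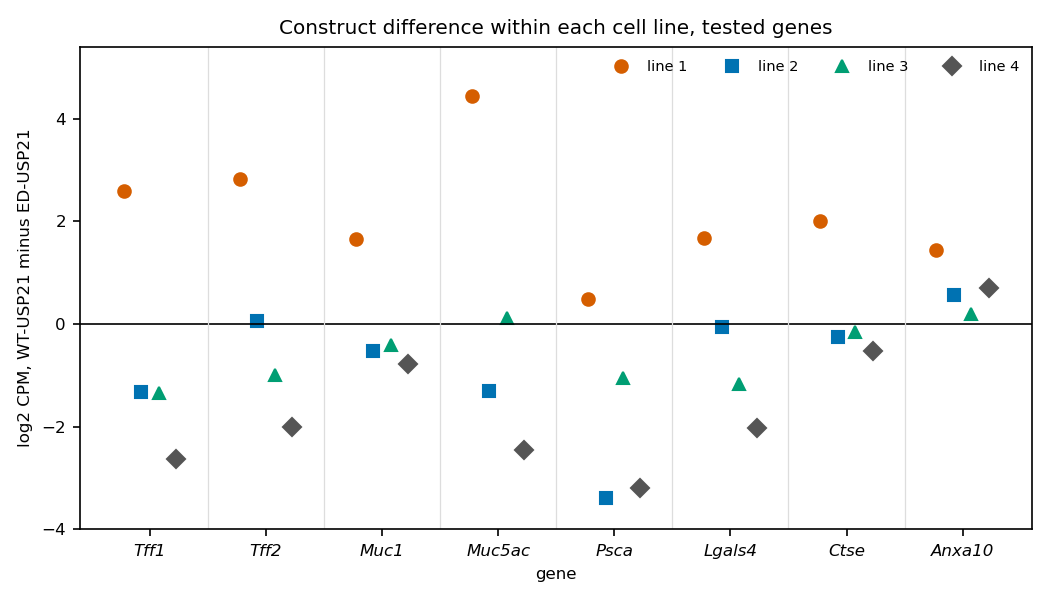
Difference in log2 CPM between the WT-USP21 and ED-USP21 library of each cell line, for the 8 tested genes; each point is 1 line and values above 0 are higher with WT-USP21. Line 1 is above 0 for all 8 genes, and only Anxa10 has all 4 lines above 0.

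Of the 8 tested genes, 5 were higher with WT-USP21 in line 1 and lower in each of lines 2 to 4, a pattern that 12.5% of all genes tested showed. Tff1 and Psca were picked for it, so the count over genes not picked for it is 3 of 6: Muc1, Lgals4 and Ctse. None had the reverse pattern, shown by 10.6% of all genes. Anxa10 was the 1 gene higher with WT-USP21 in 4 of 4 lines, where the share of all genes was 9.02%, and none was lower in 4 of 4, where it was 7.73%. In line 1, 6 of the 6 genes not picked were higher with WT-USP21, beside 51.4% of all genes. Each sign is that of a single difference between 1 library and another, with no replicate within a line.

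Fitted over the 4 lines with line as a block, no gene of the set passed the threshold in edgeR's quasi-likelihood test (Benjamini-Hochberg adjusted p of 0.05 over all genes tested), and 0.0247% of all genes did, 4 of 16192. Leaving out line 1 gave 746 calls, and leaving out line 2, 3 or 4 gave 0. For Anxa10 the fitted value was 0.73 (SE 0.19, adjusted p = 0.370). Those of the other 5 genes not picked on signs were smaller than their standard errors: Tff2 at -0.16 (SE 0.80, adjusted p = 0.983), Muc1 at -0.06 (SE 0.41, adjusted p = 0.988), Muc5ac at -0.21 (SE 1.14, adjusted p = 0.985), Lgals4 at -0.43 (SE 0.61, adjusted p = 0.911) and Ctse at 0.22 (SE 0.42, adjusted p = 0.940). Tff1 was at -0.90 (SE 0.87) and Psca at -1.85 (SE 0.74). Without the block 0 of 16192 genes were called (0%) by edgeR, with 392 at an unadjusted p below 0.05. There DESeq2 called 60 and limma-trend 3. DESeq2 with the block called Anxa10 higher with WT-USP21 (adjusted p = 0.0122), in a fit where 1.98% of 15878 genes were called higher. Of the 6 genes not picked on signs, 1, Anxa10, was at an unadjusted p below 0.05 in edgeR with the block and without it. Of all 16192 genes, 1341 were below it with the block and 392 without.

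Within lines 2 to 4 alone, edgeR called Muc1 lower with WT-USP21 (log2 difference -0.57, SE 0.08, adjusted p = 0.0194; lower in 3 of 3 lines) and Anxa10 higher (0.50, SE 0.10, adjusted p = 0.0477; higher in 3 of 3 lines). The shares of all genes called in that fit were 2.06% lower and 2.51% higher. Over the 10 alternative fits with the block, the adjusted p of Muc1 ranged from 0.0194 to 0.9996 and that of Anxa10 from 0.0122 to 0.999. Lgals4 (-1.08, SE 0.34, adjusted p = 0.148), Muc5ac (-1.21, SE 0.47, adjusted p = 0.238), Tff2 (-0.96, SE 0.37, adjusted p = 0.243) and Ctse (-0.30, SE 0.08, adjusted p = 0.107) were below 0 and not called. Tff1 was at -1.77 (SE 0.26) and Psca at -2.56 (SE 0.49). Both were picked for sharing a sign in lines 2 to 4, so these values are a description and carry no test. Line 1 was known to depart before this fit was read, and whether the construct acts differently in line 1 was not tested.

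**Figure D3:**
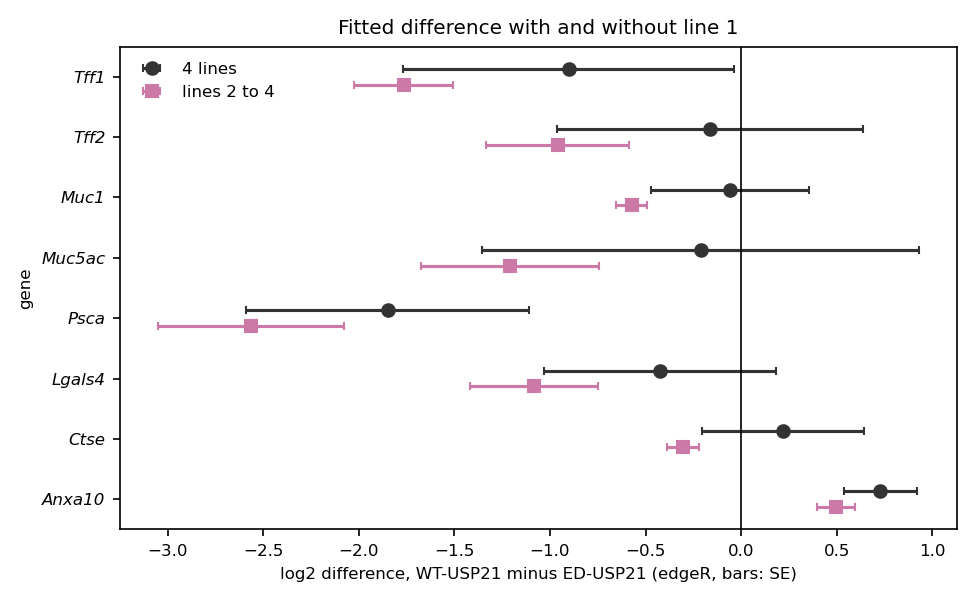
Fitted log2 difference, WT-USP21 minus ED-USP21, with bars of 1 SE, for the 8 tested genes over 4 lines (circles) and over lines 2 to 4 (squares). Leaving out line 1 shifts every gene to the left and shortens all 8 bars, and Anxa10 stays to the right of 0. Tff1 and Psca were picked on their signs by line, so their points are a description.

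Summed levels of the epithelial, tuft and immune marker lists had the same signs by line as Tff1. For the epithelial list, the medians of the 6 markers Epcam, Cdh1, Krt7, Krt8, Krt18 and Krt19 were 0.47, -0.23, -0.17 and -0.25 in lines 1 to 4, and their summed level was 13307 against 11169 CPM (WT-USP21 against ED-USP21) in line 1 and 7834 against 8099, 8421 against 10081 and 7650.0 against 9074 CPM in lines 2 to 4. Of the 6 markers, 4 had the signs of Tff1, against 12.5% of all genes. Epcam, at low levels, was higher with WT-USP21 in lines 3 and 4 (log2 differences 1.48 and 1.42). Krt18 was higher with WT-USP21 in lines 2 and 4 (0.20 and 0.12). Krt19, the duct keratin, fell within lines 2 to 4 (log2 difference -0.58, SE 0.09, adjusted p = 0.0261 in edgeR). The 4 tuft cell markers summed to 327 against 143 CPM in line 1, and to 228 to 237 CPM with WT-USP21 against 276 to 292 CPM with ED-USP21 in lines 2 to 4. Avil, a cytoskeletal gene not limited to tuft cells, held nearly all of it, while Pou2f3 and Trpm5 were under 1 CPM in every library and Gfi1b was at 0. The 5 immune markers summed to 6.12 against 5.11 CPM in line 1, and to 9.85 to 13.1 against 13.1 to 16.2 CPM in lines 2 to 4, with Cd68 above 1 CPM and the other 4 below it. The immune sum is that of Cd68: Ptprc and Csf1r went the other way in line 1 (log2 differences -0.73 and -0.15), and the list's line medians were -0.15, -0.89, -0.28 and -0.24. The 5 endothelial markers summed to 2.35 to 7.42 CPM with WT-USP21 and 0.549 to 0.839 CPM with ED-USP21, higher with WT-USP21 in 4 of 4 lines as Anxa10 was, with Pecam1, Tek and Emcn under 1 CPM. With WT-USP21 the sum was mostly Cdh5 in line 1 (2.23 CPM, with Kdr at 0.0435). In lines 2 to 4 it was mostly Kdr (5.11, 7.07 and 7.03 CPM). Pecam1 was lower with WT-USP21 in lines 1 and 2 (log2 differences -0.85 and -0.74), and Tek in line 3 (-1.01). The 7 fibroblast markers summed to 7.26 against 7.84 CPM in line 1 and to 6.85 against 5.31, 8.76 against 7.53 and 14.98 against 4.78 CPM in lines 2 to 4, with Pdgfra, Col1a1 and Col1a2 holding nearly all of it and Dcn, Lum and Thy1 at 0. The part of these marker levels, and of the Usp21 RNA level, in the levels of the gastric-type genes was not tested.

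Other genes of the same biology were read in lists, chosen with results of these libraries known. No gene of the 10 lists was called over the 4 lines by edgeR. DESeq2 over the 4 lines called Ceacam1, Tox3, Krt20 and Anxa11 lower with WT-USP21 and Anxa6, Bace1 and Pdia5 higher. The Tox3 call rests on lines 2 to 4, as line 1 had no Tox3 reads. Of all 15878 genes in that fit it called 91 lower and 315 higher. The calls below are those of edgeR within lines 2 to 4, where 2.06% of all genes were called lower and 2.51% higher. Of 15 other stomach secretory and surface genes, 8 were tested, 2 fell and none rose: Sult1c2, a sulfotransferase of stomach mucosa (-1.33, adjusted p = 0.0300), and Vsig1, a junction protein of stomach epithelium (-0.40, adjusted p = 0.0224). The line medians of the 8 were 1.49, -0.49, -0.26 and -0.61, and 5 of the 8 had the signs of Tff1 against 12.5% of all genes. Dmbt1, a secreted scavenger protein that binds mucins, was at 63.3, 4.06, 9.28 and 1.13 CPM with WT-USP21 and 3.10, 6.66, 20.4 and 11.3 CPM with ED-USP21. It was not called, and Dmbt1 and Vsig1 were named after their values were seen. Gkn3, a stomach gastrokine, had a value of 2.04 over the 4 lines (SE 0.78, adjusted p = 0.587) and was below 0.5 CPM in every library. Aqp5, a water channel, was at 1.04 within lines 2 to 4 (adjusted p = 0.0851) and Gkn1, a gastrokine of surface cells, at 0.16 (adjusted p = 0.756).

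Of 24 genes linked to the classical type of pancreatic tumour, 12 were tested over the 4 lines and 11 within lines 2 to 4, where 6 fell and none rose. Ceacam1, an adhesion molecule, was at -1.29 (adjusted p = 0.00892) and Tox3, a nuclear factor, at -0.90 (adjusted p = 0.0443). In line 1 Ceacam1 was at only 0.457 CPM with WT-USP21 and 0.443 CPM with ED-USP21, a log2 difference of 0.04. In lines 2 to 4 it was at 16.0 to 56.3 CPM. Tox3 was at 0 in both libraries of line 1. Krt20, a keratin of gut surface cells, was at -0.31 (adjusted p = 0.0657) and was not called. Spink4, a secreted protein of goblet cells tested over the 4 lines only, was at 1.16 (SE 0.40, adjusted p = 0.512) and higher with WT-USP21 in 4 of 4 lines, at 0.0386 to 0.272 CPM. The other 4, named after their values were seen, were Erbb3, a receptor of neuregulin, at -1.29, Fxyd3, a regulator of the sodium pump, at -1.59, Cdh17, an intestinal cadherin, at -0.73, and Pls1, an actin bundler of microvilli, at -0.43. The line medians of the 12 were 0.42, -0.42, -0.62 and -0.71, against -0.02 to 0.01 for all genes, and 8 of the 12 had the signs of Tff1 against 12.5% of all genes.

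Mucin O-glycosylation enzymes build the sugar chains that mucins such as Muc1 and Muc5ac carry. Of 18, 15 were tested, 4 fell within lines 2 to 4 and none rose. Galnt7, which attaches sugars early on the chain, was at -0.59 (adjusted p = 0.0131), and Gcnt4, a branching enzyme, at -0.49 (adjusted p = 0.0201). B3gnt3, which extends core chains, at -0.20 (adjusted p = 0.110), and St3gal1, a sialyltransferase, at -0.28 (adjusted p = 0.124), were not called. Gcnt3, the mucin-type branching enzyme, was at -1.06 and Gcnt1 at -0.42, both named after their values were seen. Gcnt3 was at 195 against 70.8 CPM in line 1 and at 148 against 283 CPM in line 2, the directions of Muc1. The line medians were 0.12, -0.19, -0.16 and -0.31.

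Among 19 transcription factors of foregut and secretory epithelium, 18 were tested, 4 fell within lines 2 to 4 and none rose. Hnf4a, a master regulator of gut and liver epithelium, was at -0.49 (adjusted p = 0.0198). Klf4 at -0.56 and Elf3 at -0.58, named after their values were seen, were also among the 4. Gata4, a stomach and foregut factor, was at 0.24 over the 4 lines (SE 0.09, adjusted p = 0.583) and Foxq1, which is known for its role in Muc5ac expression in stomach, at 0.26 (SE 0.11, adjusted p = 0.623). These were the 2 of the 18 that were higher with WT-USP21 in 4 of 4 lines, where the share of all genes was 9.02%. Neither was called. Creb3l4 was at -0.38 (SE 0.27, adjusted p = 0.794).

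The last lists held relatives of single genes of the set. Of 11 other mucins 2 were tested, and neither Muc6 (0.19 within lines 2 to 4) nor Muc5b (-0.23), both gel-forming, was called. Of 13 LY6/uPAR relatives of Psca, 7 were tested within lines 2 to 4 and 1, Lynx1, fell (-0.49, adjusted p = 0.0194). Slurp1, which lies near Psca, was at -0.73, Ly6a at -0.33 and Ly6e at 0.04, none of them called. None of 5 tested galectins was called, with Lgals2 at -0.77, Lgals9 at -0.42, Lgals3 at -0.11 and Lgals1 at 0.21. Of 11 other annexins, Anxa6 rose (1.04, adjusted p = 0.00951), and Anxa4 (-0.47), Anxa11 (-0.44) and Anxa13 (-0.54) fell. Anxa10 thus shared its direction in lines 2 to 4 with Anxa6 and not with the other 3. Of 3 tested aspartic proteases, Bace2 fell (-0.72, adjusted p = 0.0495), while Bace1 at 0.25 and Ctsd at 0.02 were not called. Of 8 protein disulfide isomerases, relatives of Agr2, Pdia5 rose (0.56, adjusted p = 0.0364), with P4hb at -0.10, Txndc5 at -0.03 and Pdia6 at -0.02.

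**Figure D4:**
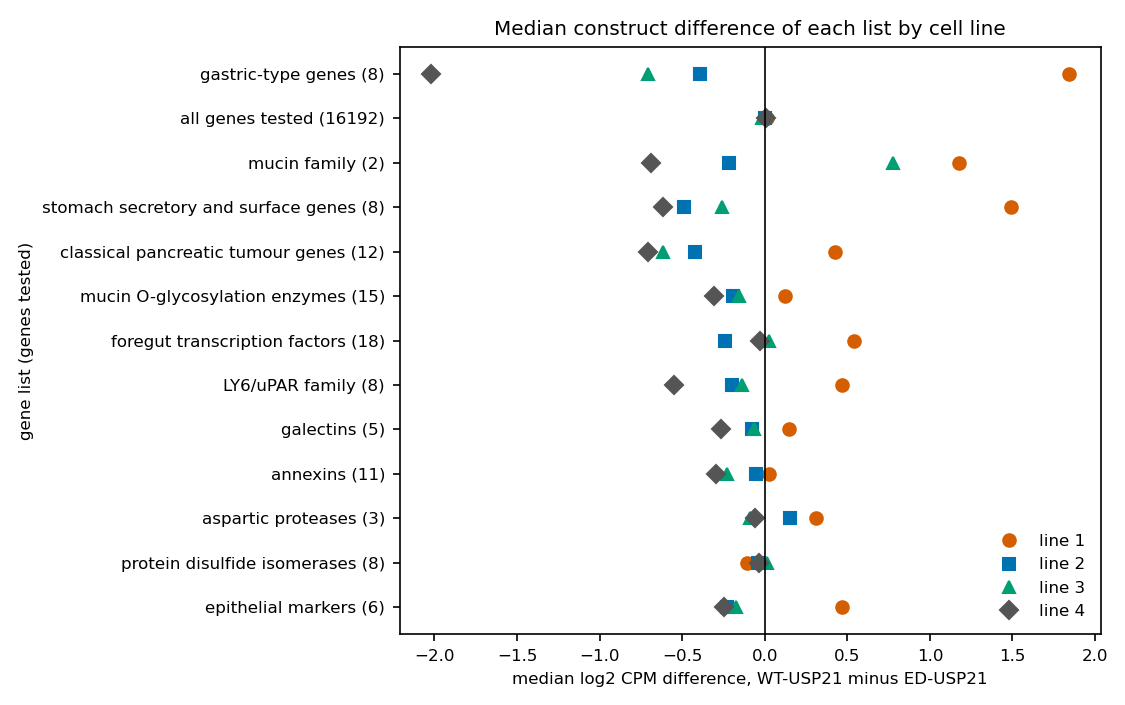
Median log2 difference, WT-USP21 minus ED-USP21, of the tested genes of each list in each cell line, with the number of genes tested in parentheses. The medians of the gastric-type genes run from -2.02 in line 4 to 1.84 in line 1, or from -1.39 to 1.84 without Tff1 and Psca, which were picked on these signs, while the medians of all genes tested lie between -0.02 and 0.01.

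Among 12340 genes with a mean of at least 1 CPM, the 5 whose log2 CPM over the 8 libraries ran most like that of Tff1 included Dgat2 (Pearson r 0.987), Fer1l4 (0.972), Mink1 (0.965) and Dnaja3 (0.957). Of these, Dgat2 makes triglyceride and Dnaja3 is a mitochondrial chaperone. Of the set itself, Muc1 came closest to Tff1 at 0.891, rank 56, then Tff2 at 0.837, Muc5ac at 0.834 and Psca at 0.797. Lgals4 at 0.107 and Anxa10 at 0.262 were unlike it. For Psca the nearest were Rhpn2 (0.963), Pkp4 (0.952), Slc22a4 (0.946), Rbm47 (0.941) and Slc12a7 (0.939). The 8 libraries are 4 pairs from shared lines, so these values describe the libraries and carry no test.

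Between the FVB/C57Bl6 lines and the C57BL/6 lines, the counts of a line were summed and 2 lines were compared with 2. None of 17897 genes passed in edgeR (0%, 0 genes), where 162 had an unadjusted p below 0.05. DESeq2 called 7 and limma-trend 0. Leaving out a line leaves 1 line in a group, so the counts of those fits are not given. The log2 difference of Muc5ac, FVB/C57Bl6 minus C57BL/6, was -1.46 (SE 0.39), with an adjusted p of 0.995 in edgeR and 0.0490 in DESeq2. Its mean levels were 1.65 and 2.42 CPM in lines 1 and 2 against 4.78 and 6.06 CPM in lines 3 and 4. Lgals4 was at 2.08 (SE 1.03, adjusted p = 0.995 in edgeR), a difference that line 1, at 523 CPM, held against 51.9, 63.5 and 74.1 CPM in lines 2, 3 and 4.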

How the data were processed

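RNA-seq counts per gene from 8 libraries of total RNA were used as deposited by the authors. The submitters' processing notes name CASAVA, STAR, TopHat, Cufflinks, HTSeq and the mouse build mm9, and their roles, versions and strand setting were not stated. The 3 rows naming no gene were left out, of which the reads on no feature were 11.4% to 20.6% of counts. CPM used totals scaled by TMM, and log2 CPM a prior count of 2. Genes passing filterByExpr were tested with edgeR 4.0.16 (quasi-likelihood), in R 4.3.3, with Benjamini-Hochberg adjustment over all genes tested and a threshold of 0.05. SE was the log2 difference over the root of F. Libraries with the same number share a cell line per the labels, so the line was the block. Alternatives were DESeq2 1.42.0, limma 3.58.1 trend, other scaling and filters, and leaving out each line. The fits were tested on simulated data with the same spread for every gene and the same construct change in every line. That does not cover lines that differ, as line 1 did here. Lengths came from GENCODE M21 exons (GRCm38), not the authors' annotation. The genes and lists were chosen with earlier results of these data known. Within each list, the up to 4 tested genes with the smallest p within lines were named, and others only where stated. Muc2, with 3 rows, was not used, and some items are not reported here. P-values measure the spread between these lines.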

Additional observations from a re-analysis of the deposited data

Results flagged for a closer look

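Of 19 groups of 4 libraries examined for a value far from the rest, 3 held one. Chance gives about 1 in 20 for independent groups. These groups are the same libraries read for different genes, so no excess can be read from the count. All 3 values were in libraries of line 1. Tff3 in the WT-USP21 library of line 1 was at 0.283 CPM, from 26 reads, against 0.0116 to 0.0525 CPM in the other WT-USP21 libraries. Muc1 in the ED-USP21 library of line 1 was at 53.3 CPM, below 193 to 211 CPM in the others. Lgals4 in the WT-USP21 library of line 1 was at 797 CPM, above 29.2 to 50.8 CPM.

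Tff2 was higher with WT-USP21 in both FVB/C57Bl6 lines, with a mean log2 difference of 1.44 that line 1 carries (2.82, against 0.06 in line 2), and 2.01-fold and 4.08-fold higher with ED-USP21 in C57BL/6 lines 3 and 4. The difference between the backgrounds was not tested.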

How the results depend on the processing

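Without the block, 0 genes were called by edgeR, 60 by DESeq2, 3 by limma-trend, 4 with the replicate block, and 0 to 383 when a line was left out. Within lines, 4 genes were called, against 58 with no filter on low counts, 0 at a mean of at least 5 CPM, 406 by DESeq2, 1 with a robust spread, and 0 to 746 when a line was left out: 746 without line 1 and 0 without line 2, 3 or 4. Between backgrounds, 0 were called, against 7 by DESeq2 and 0 to 4610 when a line was left out: 8 without line 1 and 4610 without line 2. The cause was not tested.

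The sign turned for Muc5ac by limma-trend (0.20) and, with no replicate block, for Lgals4 (0.85) and Ctse (-0.070). When a line was left out, the log2 difference ranged from 0.50 to 0.91 for Anxa10, -0.30 to 0.50 for Ctse, -1.08 to 0.14 for Lgals4, -0.57 to 0.21 for Muc1, -1.21 to 0.73 for Muc5ac, -0.96 to 0.52 for Tff2, -2.56 to -1.25 for Psca and -1.77 to -0.21 for Tff1. The cause was not tested. Scaling by RLE changed no sign and no side of the threshold for the 8 tested genes. The share of genes with the signs of Tff1 was 13.5% among genes with a mean of at least 1 CPM, against 12.5%. Depth limits Tff3 and Agr2.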
